A study of Mus musculus with 12 samples.

Results

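The genes described here encode receptors of the interleukin-1 family together with the ligands and the antagonist that act on them. They are Il1r1, Il1r2, Il1rl1, Il1rap, Il18r1, Il18rap, Il1rn, Il1b and Il18, 9 genes in all. Each was represented by every probe set that the platform annotation gives to its symbol alone. Il1r2 is among them because it was lower with both semaphorins than with SEMA3A alone in these arrays, so its values in that comparison are a description and carry no test. Of the 9 genes, 8 had a listed probe set, with 16 probe sets between them. Il1rl1, which encodes the interleukin-33 receptor ST2, had none listed and has no value here. Of the 16 probe sets, 9 passed the filter on dim signals, which asked for a signal above the median of the same array on at least 3 arrays. Those 9 covered 6 genes, Il1r2, Il1rap, Il18r1, Il18rap, Il1b and Il18, which are 6 of the 11325 genes tested.

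The RNA came from splenocytes of DBA/2 mice aged 10 weeks, kept for 9 days with tumour cells and given interleukin-2 at 100 units/mL every 3 days. The tumour cells of all 4 groups were KLN-205, a mouse squamous carcinoma line, carrying a knockdown of SEMA3A, and all arrays share that background. The control group had nothing more; in the SEMA6A group those cells also overexpressed SEMA6A; the SEMA3A group received purified SEMA3A at 10 µg/mL; and the last group had the SEMA6A-overexpressing cells and SEMA3A at 10 µg/mL together, called both factors below. Each group had 3 arrays, 12 in all. Whether the 3 arrays of each group came from separate cultures or animals is not stated in the labels, so the p-values measure only the spread between these arrays.

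Interleukin-1 acts through IL-1R1, which binds the cytokine and then recruits the accessory protein encoded by Il1rap; the pair signals through MyD88 to NF-kappaB. The product of Il1r2 binds interleukin-1 but lacks the intracellular signalling domain, so it works as a decoy, and neutrophils, monocytes and regulatory T cells are known for carrying it. The interleukin-1 receptor antagonist, from Il1rn, occupies IL-1R1 without activating it. Interleukin-18 uses a separate pair of chains, from Il18r1 and Il18rap, which NK cells and activated T cells carry and through which it raises interferon-gamma. Interleukin-1 beta and interleukin-18 are made as precursors that caspase-1 cleaves in the inflammasome.

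Of the 9 genes, 5 are neighbours on mouse chromosome 1 (assembly GRCm38.p6), in the order Il1r2 at chr1:40084692-40125230, Il1r1 at chr1:40222480-40316201, Il1rl1 at chr1:40404864-40465418, Il18r1 at chr1:40465552-40500854 and Il18rap at chr1:40515362-40551707. Il1rn and Il1b lie on chromosome 2, Il18 on chromosome 9 and Il1rap on chromosome 16. The RefSeq promoters of Il1r2 and Il18rap, from 250 bases before to 50 bases after the start site, are shown because both genes had higher means with either factor alone than with none or both. Both are on the plus strand, at chr1:40085843-40086142 and chr1:40515112-40515411, and capitals mark ACGTG, the core of the hypoxia response element, on either strand.
Il1r2: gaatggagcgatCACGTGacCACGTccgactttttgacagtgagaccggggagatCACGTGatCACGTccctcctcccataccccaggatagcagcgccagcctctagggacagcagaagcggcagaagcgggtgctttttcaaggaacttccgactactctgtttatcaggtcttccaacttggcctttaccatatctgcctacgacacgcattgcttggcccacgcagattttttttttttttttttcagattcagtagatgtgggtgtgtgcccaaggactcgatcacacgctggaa
Il18rap: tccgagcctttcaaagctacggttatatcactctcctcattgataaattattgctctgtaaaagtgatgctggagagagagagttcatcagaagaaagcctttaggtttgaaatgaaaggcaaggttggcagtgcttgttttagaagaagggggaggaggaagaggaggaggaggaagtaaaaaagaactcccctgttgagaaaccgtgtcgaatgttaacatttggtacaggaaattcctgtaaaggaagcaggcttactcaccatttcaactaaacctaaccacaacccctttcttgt
The Il1r2 promoter held 6 matches to ACGTG, counting both strands, in 4 stretches. They begin 238, 230, 195 and 187 bases before the start site listed for this promoter. The Il1r2 window lies inside the span given above for the gene, so that start site is not the first base of the span. Of these stretches, 2 are the E-box CACGTG, which reads ACGTG on each strand and so counts as a pair of matches. ACGTG was found in 19.6% of the 32851 RefSeq promoters of this length, and 33 promoters (0.1%) held as many matches as Il1r2. CACGTG was found in 7.15% of them. The Il1r2 promoter also held 1 match to TTCNNNGAA, a palindrome bound by STAT factors, which 8.3% of promoters hold. The Il18rap promoter held none of these 3 motifs. Among the other genes, ACGTG had 1 match in the promoter of Il1rap and 1 in the first of 2 listed promoters of Il1r1. TTCNNNGAA had 2 matches in the last of 3 listed promoters of Il18r1. These matches describe the letters only, and binding was not measured.

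Signals are MAS5 intensities on a linear scale and are not comparable between probe sets, so levels were compared between groups within a probe set. Differences are on the scale log2(signal + 16) after quantile normalization, which understates those of dim genes, and are given ± SE from limma. Array medians lay between 42.5 and 53.5. The 3'/5' ratio of the Gapdh control probe sets, a sign of RNA degradation, was 1.22 on SEMA6A replicate 2 and 0.767 to 0.818 on the other 11 arrays. Of the T cell genes named on the array 9 of 9 passed the filter, and of the NK genes 7 of 7. All were above the array median on 12 arrays except the NK genes Ncr1, on 10, and Klra8, on 4. Of 6 B cell genes named on the array, 2 passed the filter, Cd79b, above the array median on 12 arrays, and Blk, on 6. The other 4, Ms4a1, Cd79a, Pax5 and Fcer2a, were above it on 0 arrays, although B cells are a large part of fresh spleen. The B cell list summed to 196 to 245 in the control group, 215 to 288 with SEMA6A, 177 to 283 with SEMA3A and 174 to 279 with both factors. As RNA of the whole culture was measured, fewer cells of a type and less RNA per cell cannot be told apart. Of 13 squamous carcinoma genes, 8 passed the filter. Epcam and Cdh1 were above the array median on 12 arrays, and Krt14, Krt17 and Trp63 on 0. The list summed to 2453 to 2906 in the control group and 2428 to 3684 with SEMA6A, highest on replicate 2. It summed to 2338 to 2925 with SEMA3A and 2577 to 2885 with both factors. The part of tumour cell RNA in the values was not tested.

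Il1r2, the decoy receptor gene, was low in every control array and in every array with both factors, and high in part of the arrays with either factor alone. Its only probe set gave signals of 86.0, 69.2 and 67.4 in the control group. It was at 67.6, 424.8 and 208.1 in the SEMA6A group and at 309.6, 252.3 and 84.1 in the SEMA3A group. With both factors it was at 79.4, 103.6 and 65.2. SEMA6A replicates 2 and 3 and SEMA3A replicates 1 and 2 thus stood above the other 8 arrays, while SEMA6A replicate 1 and SEMA3A replicate 3 lay within the range of the control and both-factor arrays.

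**Figure D1:**
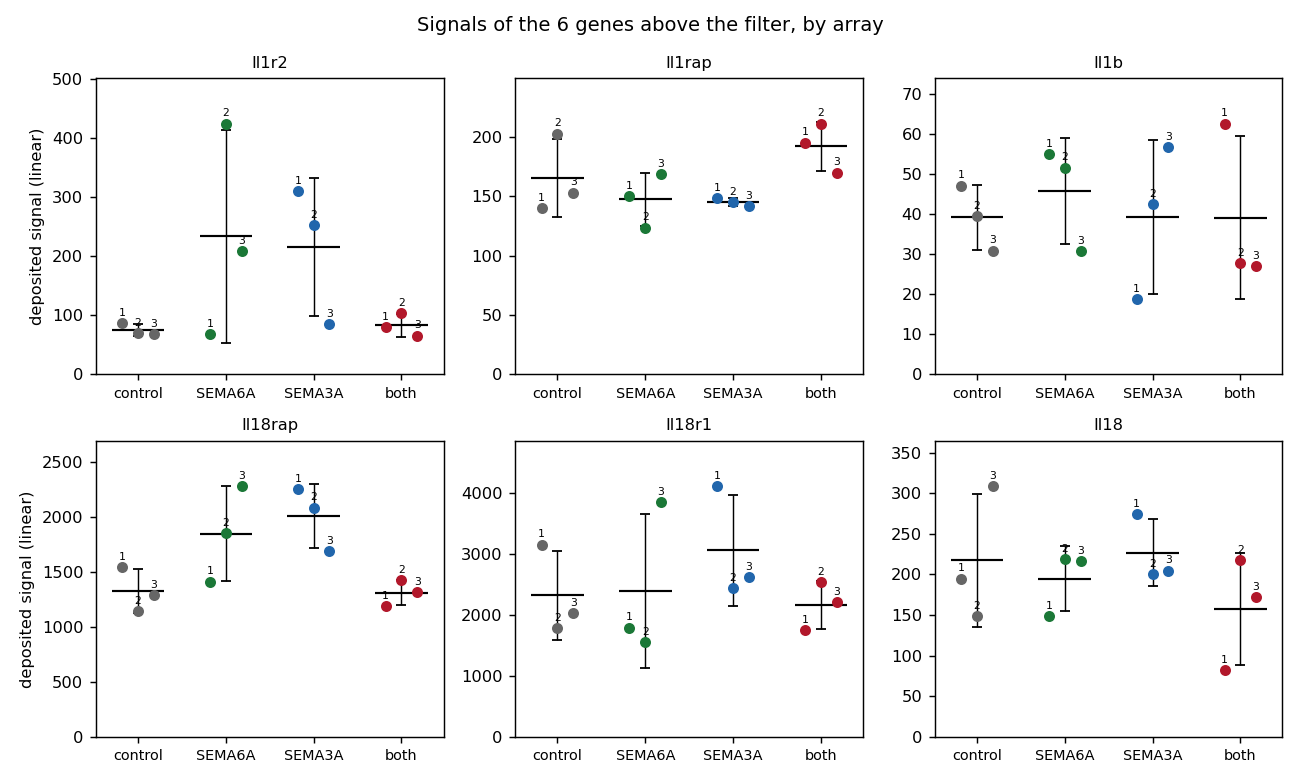
Deposited signal on a linear axis for the 6 genes that passed the filter, by group; points are arrays labelled by replicate number, bars are the group mean with 1 SD (n = 3). Il1r2 is high on 4 arrays of the groups with 1 factor, up to 424.8, and Il18rap is higher on all 3 SEMA3A arrays than on any control array.

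The group means of Il1r2 were 233.5 ± 180 with SEMA6A, 215.3 ± 117.2 with SEMA3A, 82.7 ± 19.4 with both factors and 74.2 ± 10.3 in controls (n = 3 each, with SD). In that order the arrays of each pair of neighbouring groups overlapped, so the order is not resolved. With SEMA6A against control, Il1r2 was 1.12 ± 0.49 higher on the log2 scale (95% interval 0.08 to 2.17), or 2.18-fold, and did not pass the test (limma adjusted p = 0.475; unadjusted p = 0.0375). The size of that difference rests on single arrays: leaving out SEMA6A replicate 2 gave 0.57, whereas leaving out SEMA6A replicate 1 gave 1.73, which passed (limma adjusted p = 0.0408). Without that array 512 genes were called in the same comparison, so the pass is not particular to Il1r2. The SE and p of Il1r2 with SEMA6A against control use a spread pooled over all groups, among them those it was chosen on. The remaining differences of Il1r2 use arrays of the comparison it was chosen on and are given without a test. They were 1.15 ± 0.49 with SEMA3A against control, 0.06 ± 0.49 with both factors against control, -1.09 ± 0.49 with both factors against SEMA3A and -1.06 ± 0.49 with both factors against SEMA6A. SEMA3A and control did not overlap after normalization, as for 9.92% of all genes in the higher direction. They did overlap in the deposited signals, where SEMA3A replicate 3 lay below control replicate 1. Without SEMA3A replicate 3 the difference between SEMA3A and control was 1.63, and without SEMA3A replicate 1 it was 0.83. The interaction, which is the difference made by SEMA6A in the presence of SEMA3A minus that in its absence, was -2.21 ± 0.69 for Il1r2 and ranged from -2.82 to -1.66 when single arrays were left out.

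Markers of the cell types known for Il1r2 were set beside it. Of 12 neutrophil genes named on the array, 1 passed the filter, and S100a8, S100a9, Mpo, Camp and Cxcr2 were above the array median on 0 arrays. The one that passed, Ltf, which encodes lactoferrin, was at 42.3, 41.6 and 51.1 in the control group and 76.0, 193.7 and 276.5 with SEMA6A. It was at 88.1, 311.6 and 39.9 with SEMA3A and at 55.8, 85.5 and 72.5 with both factors. Ltf was thus high on 3 of the 4 arrays with high Il1r2, and on the fourth, SEMA3A replicate 1, its 88.1 was near the 85.5 of an array with both factors. Elane and Csf3r, genes of the list below the filter, were highest with both factors, at up to 83.8 and 61.4. The summed signal of the neutrophil list ran from 175 to 214 in the control group, 210 to 450 with SEMA6A, 176 to 590 with SEMA3A and 292 to 402 with both factors.

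Of 13 macrophage and monocyte genes, 6 passed the filter, and their list summed to 4826 to 6280 in the control group, 4654 to 8207 with SEMA6A, 5481 to 8187 with SEMA3A and 4444 to 5087 with both factors. Adgre1, which encodes F4/80, was above the array median on 1 array, and its highest signals, 43.4, 51.5 and 48.7, were those with both factors. Fcgr3, an Fc receptor gene of myeloid and NK cells, was at 546.3, 417.3 and 521.6 in the control group, 414.3, 1026 and 967.2 with SEMA6A, 1404, 1082 and 759.2 with SEMA3A, and 570.6, 624.2 and 528.2 with both factors. Its highest 4 arrays were the same 4 as those of Il1r2, and so were those of Cd68, at 298.4 to 346.9. Not all genes of the list did so: Csf1r was highest, at 136.3, on replicate 1 with both factors. Of the regulatory T cell genes 4 of 5 passed the filter, but Foxp3, which defines these cells, was above the array median on 0 arrays. The regulatory T cell list summed to 11129 to 12180 in the control group, 11855 to 16941 with SEMA6A, 12134 to 16971 with SEMA3A and 10828 to 12109 with both factors. Mast cell and basophil genes had 5 of 11 above the filter, among them Mcpt8 on all arrays, while Fcer1a and Ms4a2 were above the median on 0 arrays. That list summed to 2770 to 3525 in the control group, 2713 to 4373 with SEMA6A, 3227 to 5752 with SEMA3A and 2863 to 3436 with both factors. The part of these cell types in the values of Il1r2 was not tested.

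The same 4 arrays were also high for 10 genes of glycolysis and the hypoxia response, among them Slc2a1, Aldoc and Bnip3, a list known from earlier results of these data to differ between the groups. Their summed signal was 92532, 97966 and 103577 in the control group. It was 108379, 137688 and 132424 with SEMA6A, 148136, 142138 and 109946 with SEMA3A, and 104367, 97167 and 106862 with both factors. The 4 highest sums fell on SEMA6A replicates 2 and 3 and SEMA3A replicates 1 and 2. The 3'/5' ratio of the transferrin receptor control was 35.7 and 23.3 on SEMA6A replicates 2 and 3, 17.2, 17.6 and 18.1 with SEMA3A, 8.39 on SEMA6A replicate 1, and 5.93 to 12.2 on the control and both-factor arrays. It was therefore also higher on the 4 arrays with high Il1r2, and on SEMA3A replicate 3, where Il1r2 was low. The part of glycolysis and of RNA quality in the values of Il1r2 and Il18rap was not tested.

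**Figure D2:**
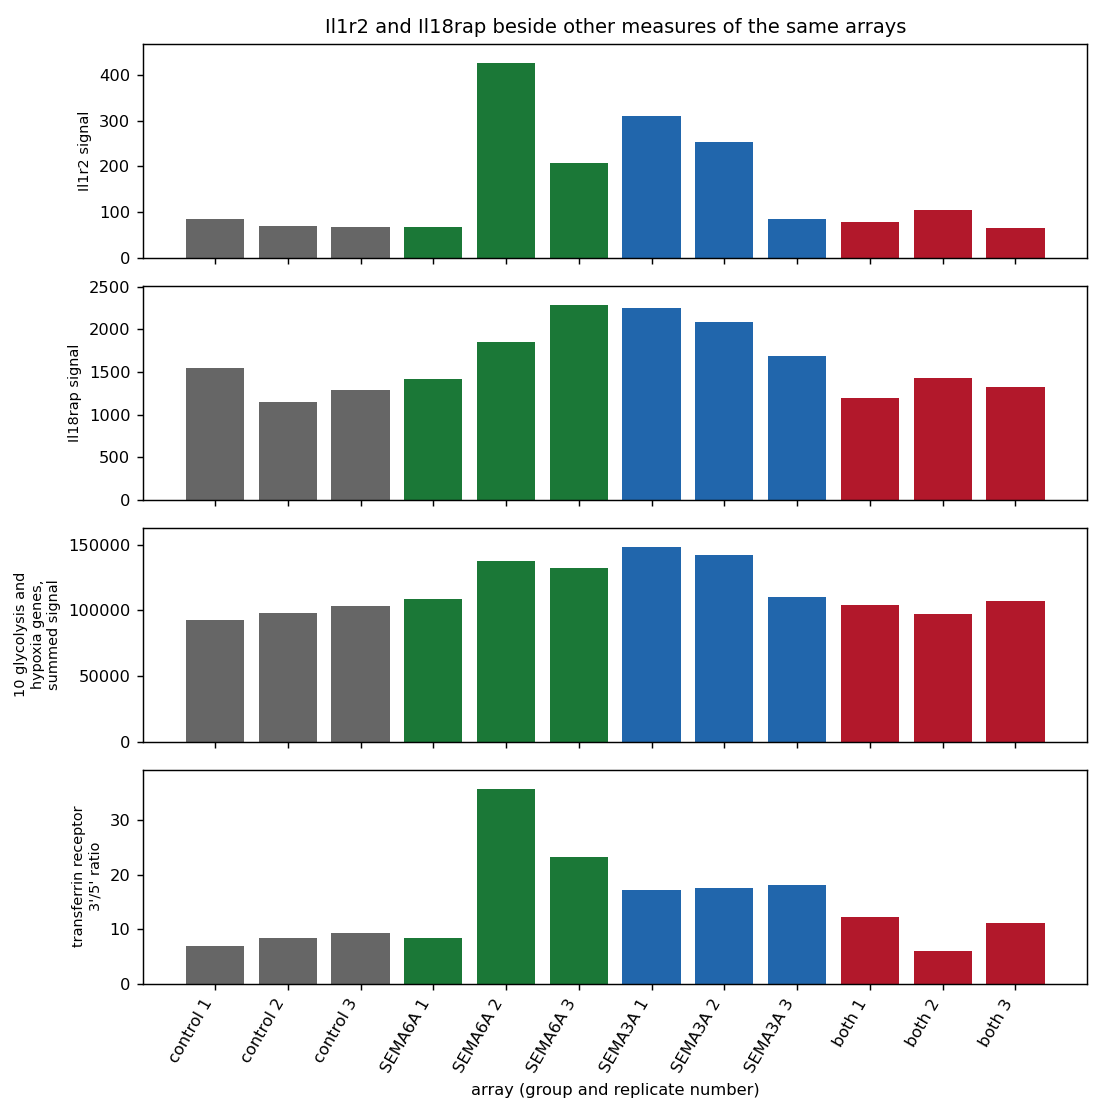
Bars give, for each of the 12 arrays, the deposited signal of Il1r2 and of Il18rap, the summed signal of 10 glycolysis and hypoxia genes, and the 3'/5' ratio of the transferrin receptor control probe sets; all axes are linear and start at 0. SEMA6A replicates 2 and 3 and SEMA3A replicates 1 and 2 are the 4 highest arrays for Il1r2 and for the glycolysis sum.

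The genes whose pattern was most like that of Il1r2 across the 12 arrays, among 10769 candidates, were Ndufv3, a subunit gene of mitochondrial complex I (Pearson r = 0.99), Cd244a, which encodes the NK and T cell receptor 2B4 (r = 0.985), and Otos (r = 0.982). Ndufv3 was at 5766, 5375 and 5802 in the control group, 5379, 11060 and 7718 with SEMA6A, 8992, 7956 and 6032 with SEMA3A, and 5818, 6066 and 5767 with both factors. Within the SEMA6A and within the SEMA3A group its arrays came in the same order as those of Il1r2. Cd244a was at 3131, 3146 and 3084 in the control group, 2986, 6139 and 4245 with SEMA6A, 4927, 4392 and 3223 with SEMA3A, and 3226, 3538 and 2988 with both factors. These correlations describe arrays that also share their group, their culture and their scaling, and were picked as the highest of many.

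The signalling receptor Il1r1 gave no usable signal. Its 2 probe sets reached at most 8.72 and 8.63 on any array, and both were above the array median on 0 arrays. Signals this low cannot decide whether Il1r1 differed between the groups. Il1r2, the decoy, was above the array median on all 12 arrays, but the brightness of different probe sets does not order the amounts of RNA.

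Il1rap, the shared accessory chain, was somewhat higher with both factors than with either alone by its brightest probe set, and the other 2 above the filter had their lowest mean with both factors. The brightest, 1421844_at, was at 140.3, 203.0 and 153.2 in the control group and 150.1, 123.7 and 168.8 with SEMA6A. It was at 148.5, 145.3 and 142.1 with SEMA3A and at 195.4, 211.6 and 170.2 with both factors. All 3 arrays with both factors lay above all 3 of SEMA6A and all 3 of SEMA3A, but not above control replicate 2. The means in order were 192.4 ± 20.8 with both factors, 165.5 ± 33.1 in the control group, 147.5 ± 22.7 with SEMA6A and 145.3 ± 3.2 with SEMA3A (SD, n = 3 each), and neighbours in that order overlapped. Both factors against SEMA6A gave 0.38 ± 0.16 (limma adjusted p = 0.424) and the interaction 0.57 ± 0.23 (limma adjusted p = 0.240), neither past the threshold. Against SEMA3A the difference was 0.39 ± 0.16, given without a test.

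A further 2 probe sets of Il1rap passed the filter. Probe set 1449585_at was at 78.85 ± 3.1 in the control group, 84.4 ± 20.7 with SEMA6A, 82.7 ± 24.6 with SEMA3A and 72.5 ± 12.9 with both factors (SD, n = 3 each). Probe set 1421843_at was at 57.0 ± 9.1, 50.5 ± 8.9, 54.8 ± 17.9 and 41.4 ± 7.3 in the same order. Its arrays with both factors all lay below the control arrays, as for 6.53% of all genes in the lower direction. With both factors against SEMA6A these probe sets gave differences of -0.19 ± 0.23 and -0.275 ± 0.23, and against control -0.18 ± 0.23 and -0.48 ± 0.23, none past the threshold (limma adjusted p over all probe sets from 0.756 to 0.991). The 3 probe sets of Il1rap above the filter thus disagreed in direction. The last 2 probe sets of Il1rap were below the filter, at no more than 38.6 and 15.5. The genes most like the brightest one over the 12 arrays were Pnpt1, a mitochondrial RNA-processing nuclease gene, Rnf4, a ubiquitin ligase gene, and Ddx10, an RNA helicase gene (r = 0.919, 0.915 and 0.911). Rnf4 was at 2472, 2802 and 2538 in the control group, 2554, 2071 and 2437 with SEMA6A, 2098, 2313 and 2470 with SEMA3A, and 2920, 3014 and 2741 with both factors.

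**Figure D3:**
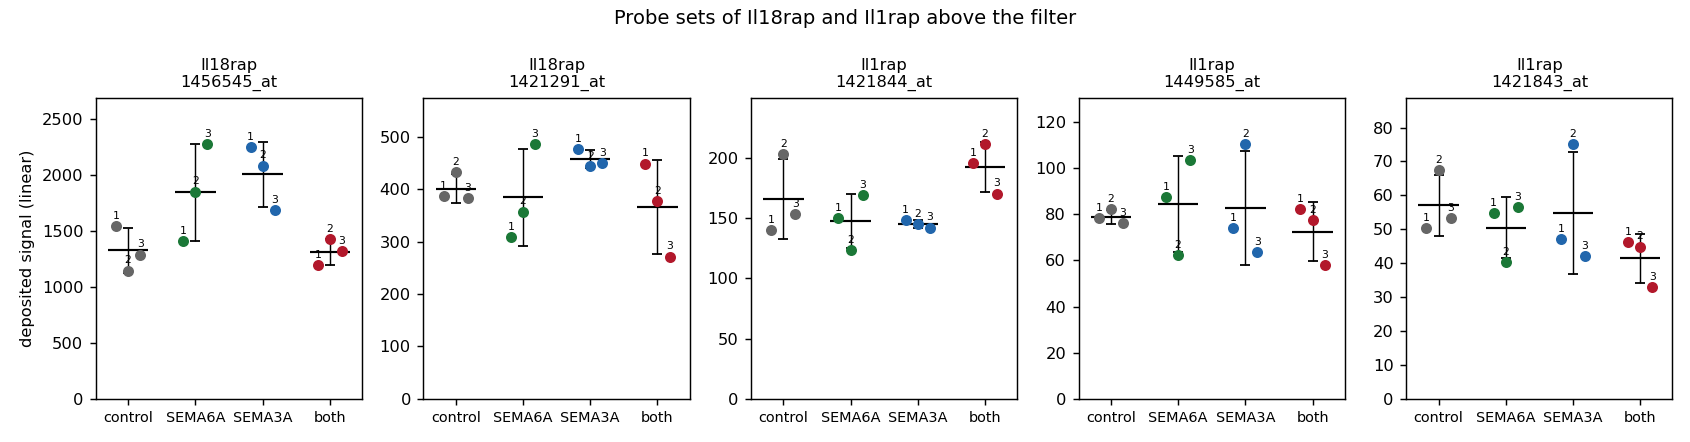
Deposited signal on linear axes for the 2 probe sets of Il18rap and the 3 of Il1rap that passed the filter; points are arrays labelled by replicate number, bars are the mean with 1 SD (n = 3). With both factors the brightest Il1rap probe set has the highest mean of the 4 groups, 192.4, and the other 2 the lowest, 72.5 and 41.4.

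The interleukin-18 receptor chain Il18rap, which is needed for signalling, had, like Il1r2, higher means with either factor alone than in the control group or with both factors, by its brighter probe set. That probe set was at 1548, 1147 and 1290 in the control group and at 1412, 1854 and 2281 with SEMA6A. It was at 2254, 2087 and 1687 with SEMA3A and at 1193, 1428 and 1320 with both factors. All 3 SEMA3A arrays lay above all control arrays and above all arrays with both factors, whereas SEMA6A replicate 1 lay within the control range. Means were 2009 ± 291.6 with SEMA3A, 1849 ± 434.1 with SEMA6A, 1328 ± 203.1 in controls and 1314 ± 117.5 with both factors (SD, n = 3 each). Neighbours in that order overlapped in their arrays.

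Against control, Il18rap was 0.61 ± 0.17 higher with SEMA3A on the log2 scale, or 1.52-fold (95% interval 0.24 to 0.98), which did not pass the test over all genes (limma adjusted p = 0.551; unadjusted p = 0.00335). With SEMA6A it was 0.46 ± 0.17 higher, or 1.38-fold (95% interval 0.09 to 0.83; limma adjusted p = 0.475). With both factors the difference from control was 0.02 ± 0.17, with an interval from -0.35 to 0.38. The interaction of Il18rap was -1.05 ± 0.24 (95% interval -1.57 to -0.53; limma adjusted p = 0.197; unadjusted p = 0.00073), above the threshold. No gene had a lower adjusted p there, but the value does not single out Il18rap. Genes with a larger unadjusted p shared it, such as the GM-CSF gene Csf2 (limma unadjusted p = 0.00732). Both factors against SEMA6A gave -0.45 ± 0.17 (limma adjusted p = 0.424), and both factors against SEMA3A gave -0.59 ± 0.17, without a test.

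The call on Il18rap turned on single arrays. Without SEMA6A replicate 1, limma called the difference from control, 0.64 (adjusted p = 0.0435), that between both factors and SEMA6A, -0.62 (adjusted p = 0.0496), and the interaction, -1.23 (adjusted p = 0.0134). Without SEMA3A replicate 3 the interaction was -1.18 (limma adjusted p = 0.0381). In the same settings many other genes were called, 512, 381 and 1286 for the 3 comparisons without SEMA6A replicate 1 and 281 for the interaction without SEMA3A replicate 3. The second Il18rap probe set, 1421291_at, did not show the same pattern. It was at 387.6, 432.7 and 383.6 in the control group, 309.4, 357.4 and 486.9 with SEMA6A, 477.3, 444.9 and 450.4 with SEMA3A, and 449.2, 377.0 and 271.5 with both factors. Its SEMA3A arrays also lay above all control arrays, as for 9.92% of all genes in the higher direction. That difference was 0.18 ± 0.18, but its SEMA6A difference was -0.07 ± 0.18 and its interaction -0.24 ± 0.25 (limma adjusted p over all probe sets 0.859, 0.939 and 0.768).

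Genes most like Il18rap over the 12 arrays were Tstd3 (r = 0.96), Akap13, a kinase anchoring protein gene (r = 0.943), and Mgst2, a microsomal glutathione transferase gene (r = 0.942). Mgst2 was at 3065, 2001 and 2712 in the control group, 2361, 4515 and 4404 with SEMA6A, 5212, 4067 and 2760 with SEMA3A, and 2196, 2583 and 2396 with both factors, so its 4 highest arrays were those of Il1r2.

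Il18r1, the ligand-binding chain of the same receptor, varied as much within groups as between them. It was at 3151, 1781 and 2027 in the control group, 1792, 1550 and 3847 with SEMA6A, 4109, 2437 and 2620 with SEMA3A and 1744, 2534 and 2207 with both factors. Every pair of groups overlapped. The difference from control was -0.02 ± 0.31 with SEMA6A, 0.41 ± 0.31 with SEMA3A and -0.06 ± 0.31 with both factors, and the interaction was -0.44 ± 0.44 (limma adjusted p = 0.981, 0.688, 0.9995 and 0.600). The interval for SEMA3A, from -0.27 to 1.08, holds the difference seen for Il18rap, so these arrays do not tell the chains apart. SEMA6A replicate 2 was the lowest array for Il18r1 and the highest for Il1r2. In contrast, SEMA3A replicate 1 was the highest array for Il18r1, at 4109, and the next highest for Il1r2, at 309.6. The genes most like Il18r1 were Plgrkt, Vps26b and Zc3hav1 (r = 0.901, 0.886 and 0.855 over 12 arrays).

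**Figure D4:**
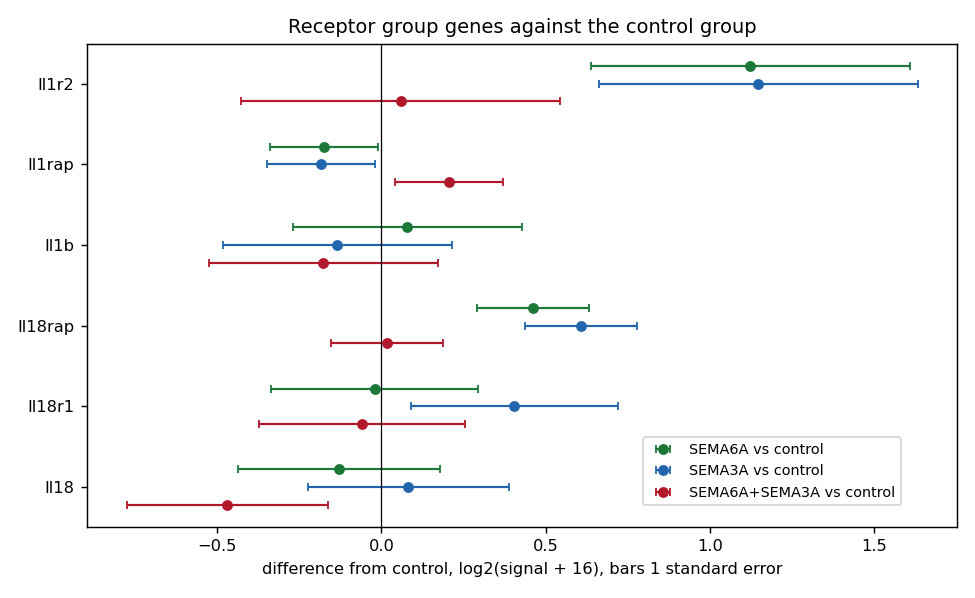
Differences from the control group on the scale log2(signal + 16) for the 6 genes that passed the filter; points are limma estimates and bars 1 standard error, over 12 arrays with 3 in a group. With both factors Il1r2 and Il18rap lie at 0.06 and 0.02, against 1.12 and 0.46 with SEMA6A and 1.15 and 0.61 with SEMA3A; no tested difference passed the threshold.

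Among the ligands, Il18 was measured on all 12 arrays and Il1b near the limit of the filter. Il18 was at 194.8, 149.0 and 308.7 in the control group, 148.7, 219.4 and 216.6 with SEMA6A, 274.2, 200.9 and 204.7 with SEMA3A and 82.5, 218.0 and 172.1 with both factors. All groups overlapped, and the lowest array was replicate 1 with both factors. The difference of Il18 from control was -0.13 ± 0.31, 0.08 ± 0.31 and -0.47 ± 0.31 in the same order (limma adjusted p = 0.875, 0.953 and 0.9995). Leaving out that array brought the last of these to -0.095. The genes most like Il18 were Armc7, Elfn2 and Klhl28 (r = 0.891, 0.877 and 0.86).

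Il1b passed the filter on 5 arrays, so its values lie close to the array medians. It was at 47.1, 39.6 and 30.85 in the control group, 54.9, 51.6 and 30.6 with SEMA6A, 18.7, 42.5 and 56.7 with SEMA3A and 62.6, 27.6 and 27.1 with both factors. Within the SEMA3A group it was lowest on replicate 1, where Il1r2 was highest. Within the SEMA6A group Il1r2 was highest on replicate 2, where Il1b was at 51.6, and Il1b was lowest on replicate 3. Its differences in the 5 comparisons between groups lay between -0.26 and 0.08, each with an SE of 0.35, and for SEMA6A against control the 95% interval ran from -0.67 to 0.83. Il1rn, the receptor antagonist gene, had 3 probe sets below the filter, with highest signals of 26.8, 48.1 and 56.8 and with 1 array above the median for the brightest of those values. These signals cannot decide whether the antagonist changed. Rnf2, Eif3b and Ccnf were most like Il1b (r = 0.831, 0.826 and 0.822).

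Counted together, limma called 0 of the 6 genes that passed the filter with SEMA6A against control, where 0% of all 11325 genes were called. At an unadjusted p under 0.05 there were 2 of 6, Il1r2 and Il18rap, beside 10.5% of all genes. With SEMA3A against control, 0 of the 5 tested genes were called (0% of all genes), and 1 of 5, Il18rap, had an unadjusted p under 0.05, beside 8.74% of all genes. Its arrays did not overlap, as was so for 9.92% of all genes in the higher direction. With both factors against control, 0 of 5 were called (0% of all genes) and 0 of 5 had an unadjusted p under 0.05, beside 4.11% of all genes. Both factors against SEMA6A gave 0 of 5 called (0% of all genes) and 2 of 5, Il18rap and Il1rap, at an unadjusted p under 0.05, beside 11.5% of all genes. The arrays of Il1rap did not overlap there, as was so for 6.75% of genes in the higher direction. For the interaction 0 of 5 were called (0% of all genes), and 2 of 5, again Il18rap and Il1rap, had an unadjusted p under 0.05, beside 18% of all genes. The median interaction of all 6 genes, a description that includes Il1r2, was -0.43, and -0.004 over all genes. The interaction of Il1r2 uses arrays of the comparison it was chosen on.

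In the comparison that Il1r2 was chosen on, both factors against SEMA3A, 5 of the 6 genes were below 0, as were 48.6% of all genes, and 1, Il1rap, was above 0, as were 51.4%. Il18rap did not overlap there in the lower direction, with 10.7% of all genes, nor Il1rap in the higher, with 10.3%; these are descriptions. The median difference of the 6 genes was -0.51, and 0.01 over all genes. The comparisons share their control, SEMA6A, SEMA3A or both-factor arrays, so their values are not independent of one another.

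The 2 factors were also compared over 6 arrays with and 6 without each. On the normalized log2 scale the largest of these differences among the 7 genes other than Il1r2 was that of Il18 for SEMA6A, -0.34 (2-sided exact permutation over 924 splits, p = 0.2165, adjusted p = 0.875 over 14 tests). The adjusted p of the other 13 lay between 0.875 and 0.92. The 2 factors averaged in this way gave Il18rap differences of -0.06 for SEMA6A and 0.08 for SEMA3A (exact permutation adjusted p = 0.912 each). In the fit over all genes, limma called 0 of 5 tested genes for the averaged effect of SEMA6A and 0 of 5 for that of SEMA3A (0% of all genes in each), and 0 of 5 had an unadjusted p under 0.05 in either, beside 5.12% and 3.34% of all genes.

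Other genes of the pathway were taken by list, and limma called 0 of the 38 tested in any of the 8 comparisons. Of 7 other ligands and antagonists only Il1f10 was tested, which encodes interleukin-38. It was at 72.75 ± 3.9 in the control group, 70.1 ± 11.2 with SEMA6A, 101.5 ± 27.1 with SEMA3A and 105.7 ± 19.85 with both factors (SD, n = 3 each). All 6 arrays with SEMA3A lay above all 6 without, as was so for 0.115% of all genes in the higher direction, and the averaged effect was 0.41 ± 0.14 (limma adjusted p = 0.999; unadjusted p = 0.0095). Il1a, the gene of interleukin-1 alpha, and Il33 were below the filter, at no more than 46.8 and 24.3.

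Of 5 other receptors and binding proteins, 3 were tested. Sigirr, an inhibitory receptor of the family, was at 2212 ± 217.4 in the control group, 2392 ± 539 with SEMA6A, 2354 ± 160 with SEMA3A and 1935 ± 27.9 with both factors, an interaction of -0.38 ± 0.19 (limma adjusted p = 0.300). Il18bp, which encodes the soluble binding protein that neutralizes interleukin-18, was at 105.7 ± 8.2, 132.5 ± 29.0, 123.2 ± 14.7 and 131.3 ± 30.3 in the same order, and none of its differences between groups exceeded 0.22. Il1rl2, the interleukin-36 receptor gene, was at 55.65 ± 3.4, 49.3 ± 11.8, 50.8 ± 11.1 and 42.2 ± 5.1, and with both factors all its arrays lay below the control arrays, as for 6.53% of all genes in the lower direction (-0.43 ± 0.23; limma adjusted p = 0.9995). The median interaction of these 3 genes was -0.14, and -0.004 over all genes.

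Of the 16 receptor-proximal signalling genes, 12 were tested. Myd88, the adaptor shared by these receptors, was at 1828 ± 123.7 in the control group, 1802 ± 127.9 with SEMA6A, 1789 ± 222 with SEMA3A and 1822 ± 247.9 with both factors, and its differences from control lay between -0.02 and 0.01 with an SE of 0.12. Traf6, the ubiquitin ligase downstream of it, was at 506.9 ± 76.8 in the control group and 669.7 ± 78.1 with SEMA6A, a difference of 0.40 ± 0.13 (limma adjusted p = 0.475). Ikbkb, which encodes the kinase IKK beta, was at 2501 ± 111.4 and 3141 ± 726, a difference of 0.31 ± 0.13 (limma adjusted p = 0.475). Map3k7, which encodes the kinase TAK1, was at 1279 ± 164.4 in the control group, 924.5 ± 239.5 with SEMA6A, 1129 ± 51.3 with SEMA3A and 978.8 ± 84.4 with both factors. Its SEMA6A arrays all lay below the control arrays, as for 4.77% of all genes (-0.48 ± 0.17; limma adjusted p = 0.475), and so did its arrays with both factors, as for 6.53% (-0.35 ± 0.17; limma adjusted p = 0.9995). Tab1 and Tab2 encode partners of TAK1. Tab1 was 0.35 ± 0.16 above control with SEMA3A without overlap, as for 9.92% of all genes (limma adjusted p = 0.564), and Tab2 differed from control by 0.07 to 0.11 with an SE of 0.08. The receptor-associated kinase gene Irak1 was at 2176 ± 186.6 with SEMA3A and 1782 ± 145.8 with both factors, a difference of -0.29 ± 0.11 without overlap, as for 10.7% of all genes (limma adjusted p = 0.404). At an unadjusted p under 0.05 there were 3 of the 12 in SEMA6A against control, beside 10.5% of all genes, and 3 in the interaction, beside 18%. In the interaction 4 lay above 0 and 8 below, beside 49.5% and 50.5% of all genes.

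Of the 11 genes of NF-kappaB subunits and feedback, 10 were tested. Nfkbiz, which encodes the inducible regulator I-kappaB zeta, had lower means with either factor alone than in the control group or with both factors. It was at 2349 ± 602.6 in the control group, 1588 ± 116.6 with SEMA6A, 1505 ± 333.5 with SEMA3A and 2126 ± 224.1 with both factors (SD, n = 3 each). The SEMA6A arrays all lay below the control arrays, as for 4.77% of all genes in the lower direction. Its interaction was 1.05 ± 0.25 (limma adjusted p = 0.197). Rela, the p65 subunit gene, and Nfkbia, the I-kappaB alpha gene, had interactions of -0.14 ± 0.16 and 0.39 ± 0.33 (limma adjusted p = 0.658 and 0.533). Tnfaip3, which encodes the NF-kappaB inhibitor A20, was 0.11 ± 0.14 from control with both factors (limma adjusted p = 0.9995).

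Of the 7 genes of cytokine processing and release, 6 were tested, and 5 of them were above 0 with SEMA6A, 5 with SEMA3A and 1 with both factors against control, beside 53.3%, 51.7% and 53.4% of all genes. Casp1, the gene of the protease that cleaves both ligands, was at 186.1 ± 4.6 in the control group, 278.9 ± 42.3 with SEMA6A, 241.7 ± 57.6 with SEMA3A and 200.4 ± 7.7 with both factors. With SEMA6A it was 0.52 ± 0.15 higher than in the control group without overlap, as for 7.36% of all genes in the higher direction (limma adjusted p = 0.475), and its interaction was -0.73 ± 0.22 (limma adjusted p = 0.197). Pycard, the inflammasome adaptor gene, was at 3756 ± 407.4, 5017 ± 1070, 4765 ± 423.4 and 3691 ± 153.9 in the same order, with an interaction of -0.78 ± 0.20 (limma adjusted p = 0.197). Gsdmd, which encodes the pore through which interleukin-1 beta leaves the cell, had an interaction of 0.11 ± 0.21 (limma adjusted p = 0.802). Nlrp3, an inflammasome sensor gene, was at 129.3 ± 14.2, 139.5 ± 17.5, 144.3 ± 27.8 and 115.6 ± 13.8 in the order above.

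Of 12 genes that interleukin-1, interleukin-18 or interleukin-33 is known to induce, 6 were tested; Il6, Il5, Il13, Cxcl2, Ptgs2 and Il17a were below the filter. Ifng, the interferon-gamma gene and the best known target of interleukin-18, was at 540.6 ± 2.3 in the control group, 339.5 ± 98.5 with SEMA6A, 389.1 ± 126 with SEMA3A and 642.3 ± 47.6 with both factors (SD, n = 3 each). Its means were lower with either factor alone than in the control group or with both factors, and its interaction was 1.46 ± 0.32 (limma adjusted p = 0.197). Csf2, the GM-CSF gene, was at 809 ± 102.3, 375 ± 264.1, 541.5 ± 515.4 and 913.9 ± 98.1 in the same order, with an interaction of 2.51 ± 0.79 (limma adjusted p = 0.197). Tnf and Ccl4 had interactions of 0.60 ± 0.37 and 0.39 ± 0.24 (limma adjusted p = 0.390 and 0.396). Of the 6 genes, 5 had an interaction above 0 and 1, Cxcl1, below; their median was 0.82, and -0.004 over all genes.

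**Figure D5:**
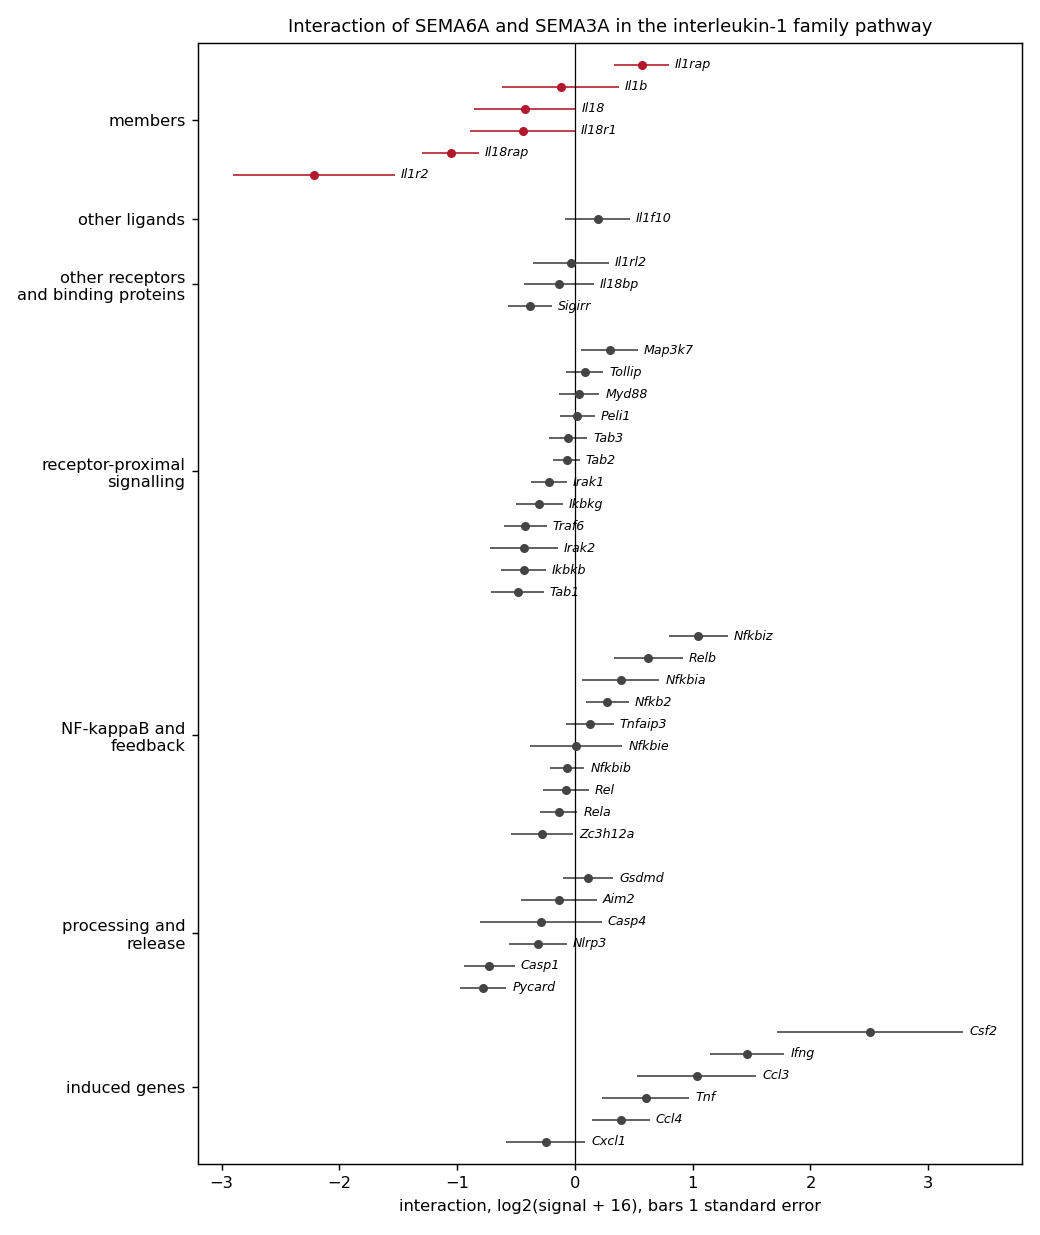
Interaction of SEMA6A and SEMA3A on the scale log2(signal + 16), by list of pathway genes, with the 6 genes of the receptor group in red; points are limma estimates over 12 arrays and bars 1 standard error. Il1r2 and Il18rap, with Casp1 and Pycard, lie furthest below 0, and Csf2, Ifng and Nfkbiz furthest above; none of the tested values passed the threshold.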

How the data were processed

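Per the labels' protocols, each single-colour array took cRNA from 6 µg of RNA. Per the submitters' processing notes the authors used MAS5 (the sources used here name no version), and they deposited 1 intensity for each probe set and array. Every array had a trimmed mean of 500. With 3 arrays a group, the number of arrays and the spread between them limit the precision. Of 45037 probe sets other than controls, 34945 named 1 gene in the platform annotation.

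From these intensities, log2(signal + 16) was taken and quantile normalized, and for each gene the brightest of the 24366 probe sets above the filter was used. A limma model (version 3.58.1, R 4.3.3; 1 mean per group, trended prior) was fitted to all 11325 genes, with Benjamini-Hochberg adjustment over all of them and a threshold of 0.05. The fit was tested on simulated data. Promoters are from RefSeq, GRCm38.p6, where all 9 genes matched by symbol.

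The genes, the pathway and marker lists and the motifs were chosen with earlier results of these data known. The text names all 9 genes. For each of the 6 above the filter it names the 3 genes of highest Pearson correlation (clones, predicted genes and receptor segments left out). Where no gene of a pathway list was called, it names the smallest p and 2 highest signals of that list in a comparison. Myd88, Csf2 and the marker genes given with values were added after their values were seen. Alternatives changed the normalization, pseudocount, filter, choice of probe set, arrays fitted, replicate block, prior and array weights, and left out each array in turn.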

Additional observations from a re-analysis of the deposited data

How the results depend on the processing

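Of 1051 values of single receptor group genes under alternatives, 1037 stayed within the residual SD of the gene from the main value, whatever their sign. A further 8 moved by more than that, and 6 came to pass the threshold in the same direction. Counted apart from this, 61 changed sign, each of them a value that was not called. Of 2597 values of pathway genes, 2560 stayed within that SD, 19 moved further and 18 came to pass, and 102 changed sign. When the probe set with the widest interquartile range stood for each gene, Il1rap took the sign of its dimmer probe sets, -0.48 with both factors against control and -0.14 for the interaction.

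Counts of genes called, 0 in all 8 comparisons, changed as follows. With both factors against control there was 1 by the widest interquartile range, 2 with only the arrays compared and 3 with array weights, which let noisy arrays count less. Array weights gave 284 with both factors against SEMA3A, 6 with both factors against SEMA6A and 1580 for the interaction, of which 1 was in the receptor group, Il18rap (-1.28, limma adjusted p = 0.0103). Without a trend in the prior there was 1 with both factors against SEMA6A. Leaving out 1 array at a time gave 0 to 512 genes with SEMA6A against control, 0 to 1 with both factors against control, 0 to 381 with both factors against SEMA6A and 0 to 1286 for the interaction, with the highest count without SEMA6A replicate 1 in each; leaving out SEMA3A replicate 3 also gave 1 with both factors against control and 281 for the interaction. In the receptor group the same ranges were 0 to 2, 0 to 0, 0 to 1 and 0 to 1, and over all 16 of its probe sets, adjusted over all probe sets, 0 to 1 were called. In the other comparisons and for the factor permutations these ranges were 0 to 0.

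Same-numbered arrays were not more alike than others. Over 18 same-numbered pairs the correlation of deviations from the group means ran from -0.357 to 0.142, and 1 was over 0.1. Over 36 pairs with different numbers it ran from -0.226 to 0.421. It was 0.421 for SEMA6A replicate 1 with SEMA3A replicate 3, where Il1r2 was low. Where Il1r2 was high, it was 0.33 for SEMA6A replicate 2 with SEMA3A replicate 1 and 0.266 for SEMA6A replicate 3 with SEMA3A replicate 2. What these arrays share was not tested. Deviations within a group of 3 arrays sum to 0, so these correlations cannot show whether same-numbered arrays were handled together. With the replicate number as a block, 0 genes were called in each of the 8 comparisons, and the interaction of Il18rap had a limma adjusted p of 0.28. The cause of these changes was not tested. A filter at the 75th percentile left only Il18r1 and Il18rap, so Il1r2, Il1rap, Il1b and Il18 have no value under it. With 3 arrays a group, an exact test between 2 groups cannot go below a p of 0.1, and the signals of Il1r1 and Il1rn, below the filter, were too dim for a comparison.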
